A study of Mus musculus with 8 samples.

Results

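The clustered histone genes of mouse were read in adult hearts that lacked a conserved enhancer of Actn2, the gene of the sarcomeric protein alpha-actinin-2. Members were all rows of the count table whose symbol begins with Hist1h, Hist2h, Hist3h or Hist4h, which gave 69 of 24516 genes. Of these, 6 encode linker histones of the H1 family and 63 belong to the core families, with 19 H2A, 19 H2B, 12 H3 and 13 H4 genes. Hist1 genes made up 55 of the 69, with 10 Hist2, 3 Hist3 and 1 Hist4 genes.

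The hearts came from mice at postnatal day 40. HOMO hearts (n = 3) lacked the enhancer on both alleles, HET hearts (n = 3) lacked it on a single allele, and WT hearts (n = 2) carried it intact. The deletion was made with CRISPR/Cas9, and per the labels the hearts shared a litter. Strain, sex, the number of founder lines and how RNA was selected for the TruSeq libraries are not stated by the labels. Nothing in the labels says more on whether hearts were taken from separate animals, so p-values measure the spread between these samples.

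Core histones form the spool around which DNA is wrapped, and linker histones bind where the DNA enters and leaves it. Most clustered histone genes are switched on while DNA is copied, and their messages end in a short stem-loop in place of a poly(A) tail. Heart muscle cells of adult mice have largely stopped dividing, but some clustered genes also give longer, polyadenylated messages outside S phase. Counting reads of these genes is also limited by their near-identical copies.

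The stem-loop is shown first because the counts below are set against what the annotated transcript holds after it. The H1 promoter is shown because an element in it separates most linker from most core genes. A match to the consensus of the histone stem-loop was searched by name on the sense strand of the longest GENCODE vM21 transcript. It was found in 45 of 69 members (65.2%), in 4 of 6 linker genes and in 41 of 63 core genes. The search could not find it where the annotated transcript stops short. A missing match therefore does not show that a gene lacks the stem-loop. Over all protein-coding genes, 72 of 21951 (0.328%) held a match in any transcript. The sites below are each 30 bases, on GRCm38, 5′ to 3′, with the bases of the stem in capitals.
Hist1h1c, chr13:23739505-23739534, plus strand: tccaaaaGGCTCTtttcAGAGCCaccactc
Hist1h1e, chr13:23621775-23621804, minus strand: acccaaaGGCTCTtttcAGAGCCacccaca
Hist1h1d, chr13:23555780-23555809, plus strand: ctcaaacGGCTCTtttcAGAGCCacccaca
Hist3h2a, chr11:58955165-58955194, plus strand: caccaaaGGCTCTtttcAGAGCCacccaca
Hist1h4h, chr13:23531451-23531480, plus strand: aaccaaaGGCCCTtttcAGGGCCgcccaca
Hist1h4i, chr13:22040959-22040988, minus strand: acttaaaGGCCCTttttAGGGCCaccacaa
The stem of the linker genes Hist1h1c, Hist1h1e and Hist1h1d was spelled as in Hist3h2a, a spelling held by 25 members, none of them an H4 gene. The stem of Hist1h4h, with the loop as printed, was held by 7 members, all H4 genes.

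Upstream of the linker genes, a known H1 promoter element with the letters AAACACA was searched on both strands, from 250 bases before to 50 bases after the RefSeq start on GRCm38.p6. It was present in 5 of 6 linker promoters (83.3%), in 4 of 57 core promoters (7.0%) and in 2360 of all 32851 promoters (7.2%). RefSeq promoters were matched for 62 of the 69 members. In the printed sequences, 5′ to 3′ on the strand of the gene, capitals mark the H1 element, the CCAAT box and the TATA box (searched as TATAAA), and no match overlaps another.
Hist1h1c, chr13:23738557-23738856, plus strand: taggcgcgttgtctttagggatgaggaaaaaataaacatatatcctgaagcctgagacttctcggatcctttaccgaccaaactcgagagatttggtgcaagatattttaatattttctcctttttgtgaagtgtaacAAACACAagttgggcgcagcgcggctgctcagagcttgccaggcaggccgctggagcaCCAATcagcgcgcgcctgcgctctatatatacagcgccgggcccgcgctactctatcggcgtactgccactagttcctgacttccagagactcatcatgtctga
Hist1h1e, chr13:23622509-23622808, minus strand: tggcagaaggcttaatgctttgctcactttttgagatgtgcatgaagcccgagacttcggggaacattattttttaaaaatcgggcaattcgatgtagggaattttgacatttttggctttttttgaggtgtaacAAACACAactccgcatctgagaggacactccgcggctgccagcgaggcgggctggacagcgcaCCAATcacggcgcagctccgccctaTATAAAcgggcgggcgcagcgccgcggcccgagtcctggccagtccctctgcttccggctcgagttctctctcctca
Hist1h1a, chr13:23763418-23763717, plus strand: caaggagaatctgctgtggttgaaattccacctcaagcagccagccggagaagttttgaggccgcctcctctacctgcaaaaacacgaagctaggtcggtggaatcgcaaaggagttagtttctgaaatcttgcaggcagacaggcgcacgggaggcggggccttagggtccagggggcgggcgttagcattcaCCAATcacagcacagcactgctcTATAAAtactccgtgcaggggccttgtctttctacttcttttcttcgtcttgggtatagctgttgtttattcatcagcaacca
The element began 112 bases before the start in Hist1h1c and 115 bases before it in Hist1h1e, and its letters were not in the window of Hist1h1a. The other 3 linker promoters held it 117 (Hist1h1b), 122 (Hist1h1d) and 114 (Hist1h1t) bases before the start. CCAAT stood in 6 of 6 linker promoters and in 48 of 57 core promoters (84.2%), against 37.4% of all promoters. TATAAA stood in 4 of 6 linker and 31 of 57 core promoters (54.4%), against 13.6% of all.

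Histone counts were low and lay in few genes. Libraries held 22230090 to 55902737 counts, and the 69 members together made up 119.8 to 142.1 of every 1000000 of them. Over all 8 libraries, 11 members had no count, 23 had fewer than 10, and 15 had a count in every library. The 6 members with the most counts held 88.9% of the 34313 member counts, led by the H2B gene Hist1h2bc (31.7%) and the linker gene Hist1h1c (26.8%). A filter on low counts, set across all genes, kept 23 members (4 linker and 19 core), and the other 46 members held 1.82% of the counts, with at most 43 counts each.

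Levels are given as counts scaled to 1000000 per library (CPM) with TMM normalization factors. Per 1000 bases of GENCODE transcript, the mean level over all libraries was 35.8 CPM for Hist1h2bc, 32.6 for the H4 gene Hist1h4h and 22.4 for Hist1h1c. It was 12.2 for Hist1h2al, 4.56 for the H2A gene Hist3h2a, 4.0 for the H2B gene Hist2h2be, 3.17 for the H4 gene Hist1h4i, 1.39 for the H2B gene Hist1h2be and 0.961 for Hist1h1e. This order depends on the transcript model: per 1000 bases of the RefSeq span Hist1h1c stood at 48.2 CPM, Hist1h4h at 35.2 and Hist3h2a at 19.3, while Hist1h2al, whose RefSeq span of 2983 bases exceeds the GENCODE transcript of 339 bases, stood at 1.38. No other member reached a mean of 1 CPM before division by length.

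**Figure D1:**
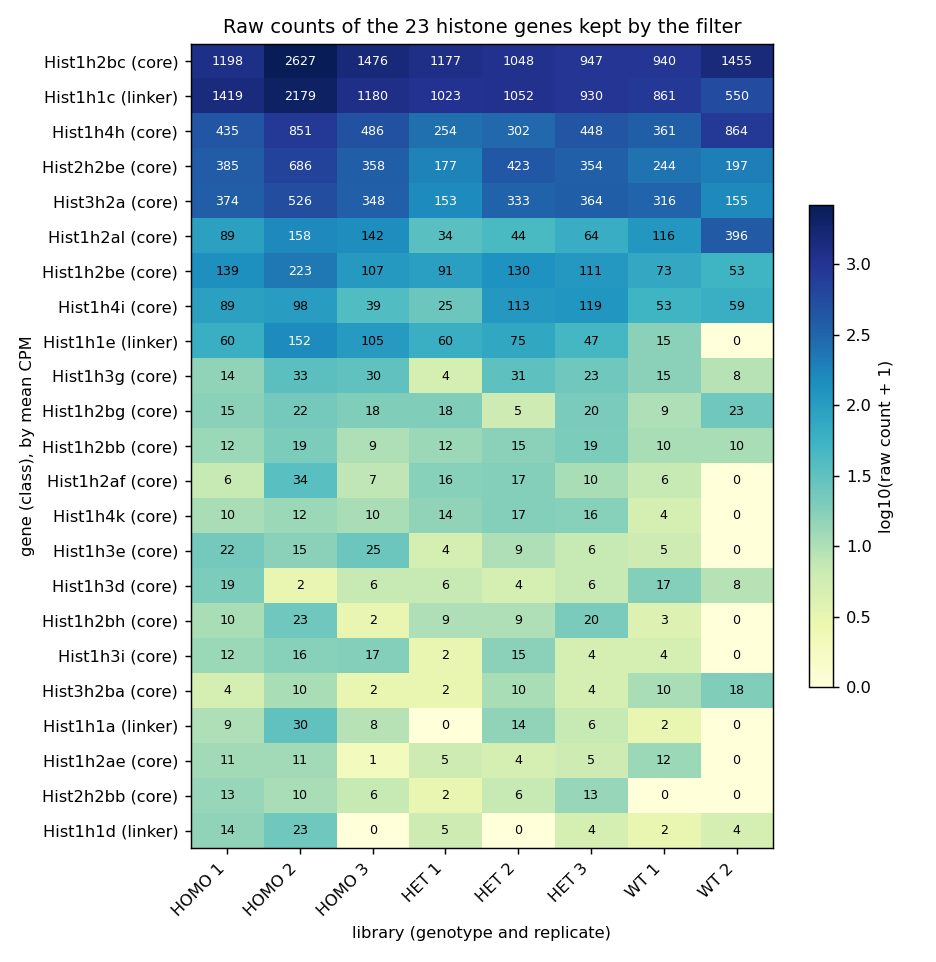
Raw counts of the 23 histone genes kept by the filter (rows, ordered by mean CPM) in each library (columns), coloured by log10(count + 1) with the count printed in each cell. The column of WT 2 holds 9 zeros, against 0 or 1 in each of the other 7 libraries, and Hist1h1e falls to 0 there.

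Among members with a stem-loop match, those that were read tended to have an annotated transcript that runs on past it. Members without a match, Hist1h2bc among them, held 44.4% of all member counts and lie outside this contrast. Of 22 members whose transcript ends within 100 bases after the stem-loop, 3 were kept by the filter and 1, Hist1h4h, had a mean of at least 1 CPM. Of 23 members whose transcript runs on for more than 100 bases, 12 were kept and 5 reached 1 CPM, among them Hist1h1c with 840 and Hist1h1e with 1153 further bases. The remaining 24 members had no match, and 8 of them were kept and 3 reached 1 CPM. Some of these have short GENCODE transcripts: 312 bases for Hist1h4k against a RefSeq span of 409, and 381 for Hist2h2bb against 493. A poly(A) signal lay in the last 40 bases of 6 of the 9 members at or above 1 CPM, and of 16 of all 69. Longer transcripts also collect more reads at the same level: the median length was 1560 bases for the 9 members and 526 bases for the other members. Of 127 small nucleolar, small nuclear and similar RNAs in the table, which also lack a poly(A) tail, 24 (18.9%) had no count in any library, against 11 of 69 histone members (15.9%) and 22.5% of all genes in the table. The summed level of these RNAs was 24.5 to 41.3 CPM per library.

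**Figure D2:**
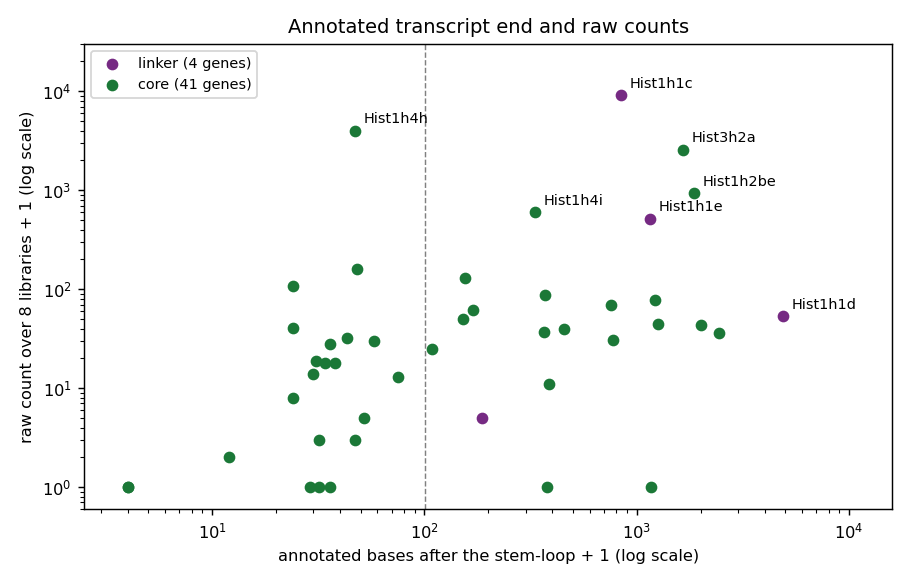
Annotated bases after the stem-loop (x axis, log scale, plus 1) against raw counts summed over 8 libraries (y axis, log scale, plus 1) for the 45 members with a match, 4 linker and 41 core. The dashed line marks 100 bases; Hist1h4h is the only member left of it with a mean of at least 1 CPM.

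Sequence sharing went with missing counts. In 35 members at least 50% of all 50-base windows of the transcript were also found in another gene, and 10 of these had no count in any library. Of the 34 members below 50%, 1 had no count in any library. The filter kept 7 of the first set and 16 of the second. How the authors counted reads with several matches is not given, so the values of single members with near-identical copies are uncertain. Exons of 7 members overlapped another gene on the same strand and those of 22 members overlapped a gene on the opposite strand, and the strand setting is not given either.

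The WT libraries stood apart from each other. Over the 15075 kept genes their log2 CPM correlated at 0.952, against 0.969 to 0.982 between deletion libraries, and WT 2 correlated with the deletion libraries at 0.927 to 0.935. Actn2 itself was at 2115, 1611 and 1791 CPM in HOMO, at 1693, 1546 and 1638 CPM in HET and at 2187 and 2703 CPM in WT hearts. Its difference passed the threshold in HET (log2 fold change -0.59 ± 0.16 SE, adjusted p = 0.0193) and missed it in HOMO hearts (-0.41 ± 0.16, adjusted p = 0.0771). The 6 markers of heart muscle cells summed to 56900 to 64070 CPM in HOMO, 57500 to 60710 CPM in HET and 70470 and 79910 CPM in WT hearts, so the label of the tissue held. Fibroblast markers (5 genes) summed to 1118 to 1455 CPM in HOMO, 1260 to 1520 CPM in HET and 1127 and 1937 CPM in WT hearts, endothelial markers (5 genes) to 721 to 945 CPM in HOMO, 704.0 to 830.0 CPM in HET and 992 and 1025 CPM in WT hearts, and macrophage markers (6 genes) to 262 to 269 CPM in HOMO, 283 to 402 CPM in HET and 307 and 328 CPM in WT hearts. Lymphocyte markers (6 genes) summed to 1.65 to 3.10 CPM in HOMO, 0.817 to 2.91 CPM in HET and 3.86 and 4.44 CPM in WT hearts. Heart muscle cell, endothelial and lymphocyte sums were lower in all 6 deletion libraries than in both WT libraries, an order that 20.7% of all genes tested showed singly. Among heart muscle cell markers 1 passed the threshold higher and 2 lower in each comparison with WT. Among endothelial markers 0 passed higher and 1 lower in each, and of 5 lymphocyte markers tested 0 passed. Of all genes tested, 27.7% passed in HOMO and 28.0% in HET hearts. The globin markers Hba-a1, Hba-a2, Hbb-bs and Hbb-bt were listed at 0 in every library. Actn2 and the Hist1 genes lie on the same chromosome, with 11.2 Mb between Actn2 and the larger Hist1 block at chr13:23531050-23934851. A smaller block of 23 members, at chr13:21715763-22043676, lies nearer to Actn2.

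WT 2 had counts for fewer histone genes than shallower libraries did. The number of members with at least 1 count was 44, 45 and 41 in HOMO, 39, 44 and 41 in HET and 37 and 25 in WT libraries, in replicate order. At the depth of the smallest library, HET 1, the expected numbers were 42.4, 40.8 and 39.2 in HOMO, 39.0, 41.6 and 39.8 in HET and 36.3 and 24.3 in WT. Among kept members with a mean under 1 CPM, 8 of 14 were at 0 in WT 2, and 0 or 1 of 14 in each other library. Among all 1965 kept genes with a mean under 1 CPM, 14.2% were at 0 in WT 2, against 1.78% to 8.50% in the other libraries. Values of single members against WT are therefore given with and without WT 2. Leaving out either WT library leaves 1 WT library, so p-values from such a fit hold no spread between WT hearts. A call there does not show that a difference holds up.

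Summed over the 6 linker genes, the level was 46.3, 41.6 and 38.2 CPM in HOMO, 49.5, 35.8 and 33.8 CPM in HET, and 34.0 and 19.3 CPM in WT hearts. All HOMO libraries lay above both WT libraries, while HET 3 lay just below WT 1. The ratio of the means was 1.58 for HOMO and 1.49 for HET hearts over WT hearts, and 1.24 and 1.17 without WT 2. Linker genes held 33.9%, 30.2% and 29.0% of all member counts in HOMO, 34.5%, 30.5% and 27.4% in HET, and 28.3% and 14.5% in WT libraries. WT 2 was lowest, and WT 1 lay within the range of the HET libraries.

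Summed over the 63 core genes, the level was 90.3, 96.0 and 93.6 CPM in HOMO, 93.8, 81.5 and 89.6 CPM in HET, and 86.1 and 114 CPM in WT hearts. The deletion libraries lay between or near the WT values, and the groups overlapped. The ratio of means was 0.930 for HOMO and 0.881 for HET hearts over WT hearts, and it turned to 1.08 and 1.03 without WT 2. The sum is carried by a few genes: the 58 core genes outside the 6 members with the most counts stood at 14.5, 11.5 and 10.7 CPM in HOMO, 12.4, 14.2 and 15.1 CPM in HET, and 9.91 and 8.11 CPM in WT hearts. For these, every deletion library lay above both WT libraries, WT 2 lowest, an order that 22.1% of all genes tested showed singly. The ratio of means was 1.36 for HOMO and 1.54 for HET hearts over WT hearts. Hist1h2be and Hist1h4i held 927 and 595 of the 3156 counts of this set, and neither passed edgeR's test with all libraries. The members left out include Hist1h4h and Hist1h2al, both highest in WT 2. Whether the sum differed was not tested. By family, H4 genes stood at 17.7, 17.3 and 16.7 CPM in HOMO, 14.2, 14.2 and 20.5 CPM in HET, and 16.5 and 32.9 CPM in WT hearts, so that WT 2 alone was high. H3 genes gave 2.44, 1.57 and 2.66 CPM in HOMO, 1.63, 2.19 and 1.68 CPM in HET, and 1.77 and 0.693 CPM in WT hearts, so that WT 2 alone was low. H2A genes gave 15.4, 13.6 and 15.3 CPM in HOMO, 10.03, 13.2 and 15.8 CPM in HET, and 17.6 and 19.3 CPM in WT hearts, with every deletion library below both WT libraries. Without Hist1h2al, described below, the H2A sums overlapped, at 10.8 to 12.7 CPM in HOMO, 8.49 to 13.6 CPM in HET and 5.61 and 13.1 CPM in WT hearts. H2B genes overlapped, at 54.8 to 63.6 CPM in HOMO, 51.7 to 68.0 CPM in HET and 50.2 and 61.4 CPM in WT hearts.

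**Figure D3:**
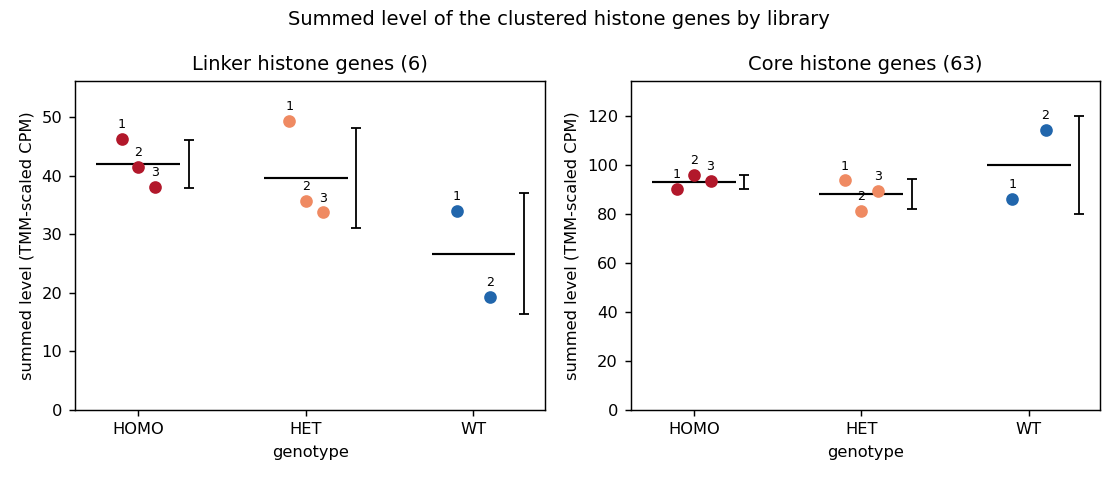
Summed TMM-scaled CPM of the 6 linker (left) and 63 core (right) histone genes by genotype; points are libraries with their replicate number, lines are means and bars beside them are SDs. For linker genes WT 2 lies lowest at 19.3 CPM, and for core genes it lies highest at 114 CPM.

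Few single members passed the test. In HOMO against WT hearts, 3 of the 23 kept members passed an adjusted p of 0.05 in edgeR's quasi-likelihood test, 2 higher and 1 lower, where 27.7% of all 15075 genes tested passed. In HET against WT hearts, the count was also 3, with the same 3 genes, where 28.0% of all genes passed. Both comparisons share the WT libraries. Of the 9 members with a mean of at least 1 CPM, 2 passed in each comparison (31.3% of such genes in HOMO and 31.6% in HET), and of the 14 below it, 1 passed (3.87% and 3.82%). The median log2 fold change of kept members was 0.56 in HOMO and 0.52 in HET hearts, against -0.03 over all genes in both, but members read mainly in the deletion libraries could enter only with a difference. This holds for the counts as well, and for both genes called higher. Hist2h2bb had no WT count and passed the filter through deletion libraries alone. Hist1h1e had 15 and 0 counts in the WT libraries, so it too needed deletion libraries to pass the filter. DESeq2 called 2 members in HOMO and 5 in HET against WT hearts, where it called 32.3% and 32.8% of all genes; it gave no adjusted p to 5 and 8 of the 23 members. Without WT 2 the members passing were 1 in HOMO and 2 in HET hearts, where 14.2% and 15.7% of all genes passed, and without WT 1 they were 9 and 8, where 37.9% and 37.4% of all genes passed. Between HOMO and HET hearts, 0 of 23 members and 0.0% of all genes passed. In that comparison, 1 member had an unadjusted p under 0.05, and DESeq2 called 3 of all genes (0.0199%), none of them a member.

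Hist1h1e, which encodes linker histone H1.4, was the linker gene that passed. It had 60, 152 and 105 counts in HOMO, 60, 75 and 47 counts in HET, and 15 and 0 counts in WT libraries. In CPM these were 1.83, 2.65 and 3.10 in HOMO, 2.72, 2.35 and 1.61 in HET, and 0.578 and 0 in WT, where 3 counts in WT 2 would be 0.104 CPM. Every deletion library lay above both WT libraries. On the log2 scale it was higher by 3.15 ± 0.85 (SE; adjusted p = 0.0242) in HOMO and 2.96 ± 0.86 (adjusted p = 0.0305) in HET against WT hearts. Without WT 2 it was 2.15 in HOMO and 1.96 in HET hearts, against 1 WT library. Between HOMO and HET hearts it was 0.19 ± 0.64 (adjusted p = 0.9996). Its annotated exon overlaps exons of Gm11398 and of Hist1h2be on the same strand, and 32.0% of its windows are shared with other genes.

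Hist1h1c, which encodes linker histone H1.2, carried most linker counts. It had 1419, 2179 and 1180 counts in HOMO, 1023, 1052 and 930 counts in HET, and 861 and 550 counts in WT libraries. Its levels were 43.3, 38.0 and 34.8 CPM in HOMO, 46.4, 32.9 and 31.8 CPM in HET, and 33.2 and 19.1 CPM in WT hearts. WT 2 was lowest, and WT 1 lay among the HET libraries. The log2 fold change missed the threshold in HOMO (0.57 ± 0.24, adjusted p = 0.107) and in HET hearts (0.50 ± 0.24, adjusted p = 0.148). Without WT 2 it was 0.25 and 0.19, with adjusted p of 0.497 and 0.625.

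The other linker genes were near the limit of detection. Hist1h1a, for H1.1, had 9, 30 and 8 counts in HOMO, 0, 14 and 6 in HET, and 2 and 0 in WT libraries (log2 fold change 3.12 ± 1.72, adjusted p = 0.150 for HOMO, and 2.48 ± 1.75, adjusted p = 0.262 for HET, against WT). Hist1h1d, for H1.3, had 14, 23 and 0 counts in HOMO, 5, 0 and 4 in HET, and 2 and 4 in WT libraries (1.34 ± 1.52, adjusted p = 0.536 for HOMO, and 0.08 ± 1.63, adjusted p = 0.979 for HET, against WT). All 3 HOMO libraries lay above both WT libraries for Hist1h1a, HET libraries overlapped WT, and for Hist1h1d all groups overlapped. Without WT 2 the log2 fold changes against WT were 2.16 (HOMO) and 1.53 (HET) for Hist1h1a, and 1.85 and 0.57 for Hist1h1d, with adjusted p of 0.441 and above. Hist1h1b, for H1.5, had 14, 0 and 0 counts in HOMO, 2, 2 and 0 in HET, and 1 and 0 in WT libraries. Hist1h1t, the testis linker histone, had its only 4 counts in WT 2. Neither of these was tested.

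Among core genes, Hist1h2al was lower in the deletion hearts. It had 89, 158 and 142 counts in HOMO, 34, 44 and 64 counts in HET, and 116 and 396 counts in WT libraries. In CPM these were 2.72, 2.75 and 4.19 in HOMO, 1.54, 1.38 and 2.19 in HET, and 4.47 and 13.7 in WT. All deletion libraries lay below both WT libraries, HOMO 3 only just, and WT 2 was highest. The log2 fold change was -1.50 ± 0.44 (adjusted p = 0.0256) in HOMO and -2.42 ± 0.45 (adjusted p = 0.00351) in HET against WT hearts. Without WT 2 it was smaller, at -0.45 in HOMO and -1.36 in HET hearts. HOMO against HET gave 0.91 ± 0.41 (adjusted p = 0.9996, unadjusted p = 0.0488). GENCODE annotates this H2A locus as a processed pseudogene of 339 bases at chr13:51202727-51203065 on the minus strand, apart from both Hist1 blocks. Its windows are shared with other genes at 67.6%, and the predicted microRNA gene Gm44341 lies on the opposite strand.

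Hist2h2bb, an H2B gene, had 13, 10 and 6 counts in HOMO, 2, 6 and 13 counts in HET, and 0 in both WT libraries. It passed in HOMO (adjusted p = 0.0486) and in HET hearts (adjusted p = 0.0497), but not without WT 2 (adjusted p = 0.168 and 0.163). With 3 counts over both WT libraries as the floor, 0.0548 CPM, its mean level was 4.56-fold the floor in HOMO and 4.40-fold the floor in HET hearts. The floor covers counting error in the WT libraries only. Error in the deletion libraries, where the lowest count was 2, is not covered, so these values are no lower bound on the fold change. Hist2h2bb also passed the filter through deletion libraries alone, where it is high. All of its windows (100%) are shared with other genes, and it overlaps Gm42743 on the same strand.

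**Figure D4:**
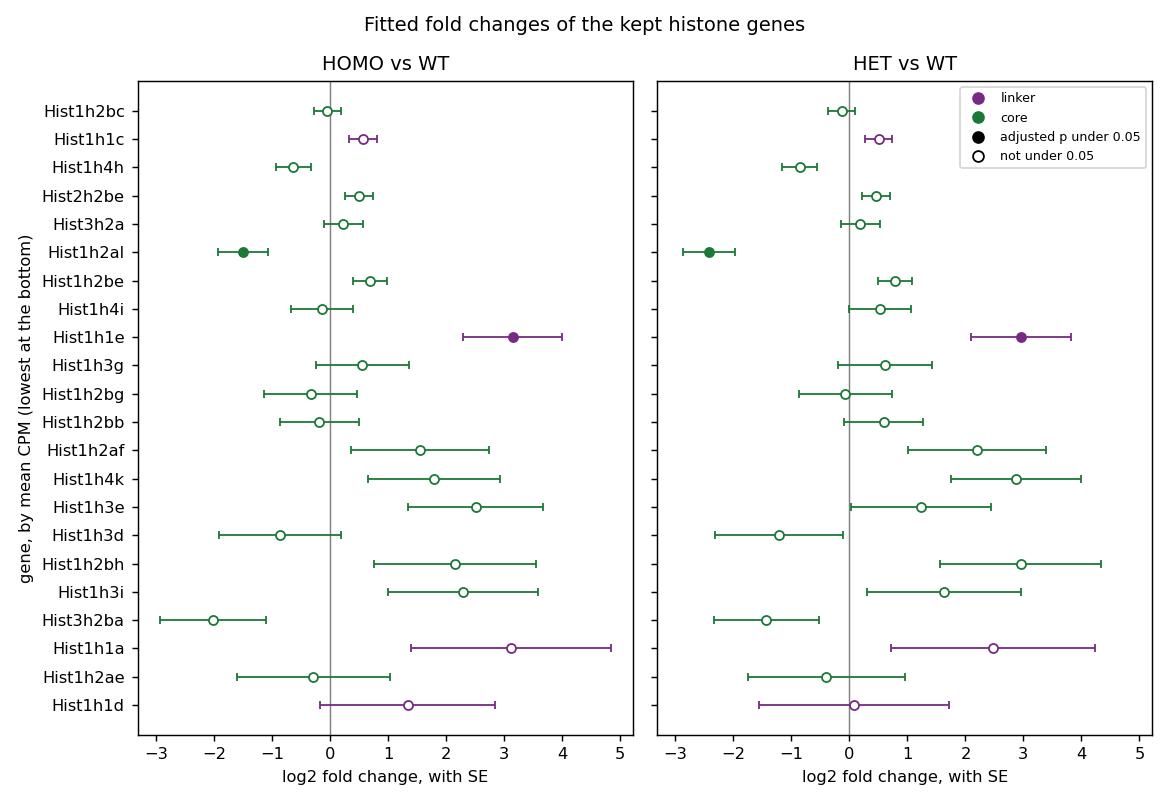
Fitted log2 fold changes with SE (x axis) of 22 kept members (rows, by mean CPM) for HOMO against WT (left) and HET against WT (right); filled points passed an adjusted p of 0.05. Hist2h2bb is left out because it was at 0 in both WT libraries; in each panel Hist1h1e lies right of 0 and Hist1h2al left of it among the filled points.

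Except for Hist1h2al, the core genes with the most counts did not pass edgeR's test against WT with all libraries. Hist1h2bc stood at 36.6, 45.8 and 43.6 CPM in HOMO, 53.4, 32.8 and 32.4 CPM in HET, and 36.2 and 50.4 CPM in WT hearts (log2 fold change -0.05 ± 0.23 for HOMO and -0.14 ± 0.23 for HET against WT). Its groups overlapped, and without WT 2 the values turned to 0.24 and 0.15. Hist1h4h stood at 13.3, 14.8 and 14.3 CPM in HOMO, 11.5, 9.45 and 15.3 CPM in HET, and 13.9 and 29.9 CPM in WT hearts (-0.63 ± 0.30, adjusted p = 0.135 for HOMO, and -0.86 ± 0.30, adjusted p = 0.0523 for HET, against WT). WT 2 alone was high, and WT 1 lay among the deletion libraries. DESeq2 called Hist1h4h lower in HET hearts (adjusted p = 0.0233), while without WT 2 the edgeR values were 0.06 in HOMO and -0.17 in HET (adjusted p = 0.919 and 0.703).

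Hist2h2be, which encodes an H2B variant known from mouse olfactory neurons, stood at 11.8, 12 and 10.6 CPM in HOMO, 8.03, 13.2 and 12.1 CPM in HET, and 9.41 and 6.83 CPM in WT hearts. Its log2 fold change was 0.49 ± 0.24 (adjusted p = 0.157) in HOMO and 0.46 ± 0.24 (adjusted p = 0.188) in HET against WT hearts, and 0.31 and 0.28 without WT 2. Hist3h2a stood at 11.4, 9.17 and 10.3 CPM in HOMO, 6.94, 10.4 and 12.5 CPM in HET, and 12.2 and 5.37 CPM in WT hearts, with WT 2 lowest and WT 1 among the highest. Its log2 fold change was 0.23 ± 0.34 in HOMO and 0.19 ± 0.34 in HET against WT hearts (adjusted p = 0.651 and 0.720), and it turned to -0.22 and -0.26 without WT 2.

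Hist1h2be had 4.24, 3.89 and 3.16 CPM in HOMO, 4.13, 4.07 and 3.80 CPM in HET, and 2.82 and 1.84 CPM in WT hearts. Every deletion library lay above both WT libraries, and HET values lay within the range of HOMO values. The fold change missed the threshold of edgeR's test (0.70 ± 0.29, adjusted p = 0.107 for HOMO, and 0.78 ± 0.30, adjusted p = 0.0755 for HET, against WT). DESeq2 called Hist1h2be higher in HET hearts (adjusted p = 0.0459), and without WT 2 the edgeR values were 0.45 and 0.53 (adjusted p = 0.425 and 0.331). Hist1h4i had 2.72, 1.71 and 1.15 CPM in HOMO, 1.13, 3.54 and 4.07 CPM in HET, and 2.04 CPM in both WT hearts, with the WT values inside the range of each deletion group. Its log2 fold change was -0.14 ± 0.54 in HOMO and 0.52 ± 0.53 in HET against WT hearts, and -0.11 and 0.55 without WT 2.

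In 4 of 23 kept members all 6 deletion libraries lay above both WT libraries, against 22.1% of all genes tested, and in 2 they lay below, against 20.7%. Besides the genes above these included Hist1h4k (above) and Hist3h2ba (below), an H4 and an H2B gene named after their values were seen. Hist1h4k had 10, 12 and 10 counts in HOMO, 14, 17 and 16 counts in HET, and 4 and 0 counts in WT libraries. Hist3h2ba had 4, 10 and 2 counts in HOMO, 2, 10 and 4 counts in HET, and 10 and 18 counts in WT libraries. Neither passed edgeR's test with all libraries. For Hist1h4k the adjusted p was 0.244 in HOMO and 0.0705 in HET against WT hearts, and 0.661 and 0.261 without WT 2. DESeq2 called it higher in HET hearts (adjusted p = 0.0304), as did edgeR with the filter of at least 10 counts in every library of 1 genotype (adjusted p = 0.0451). With 4 and 0 WT counts, Hist1h4k met this filter and the main filter only through deletion libraries, where it is high. These calls are therefore no separate support for a difference. For Hist3h2ba the adjusted p was 0.114 in HOMO and 0.255 in HET against WT hearts, and 0.401 and 0.610 without WT 2. The other 9 kept members, all core genes, passed in neither comparison and had means under 1 CPM and 49 to 158 counts over 8 libraries.

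Histone genes outside the clusters, whose messages mostly carry poly(A) tails, were read at higher levels. Their sums over 13 genes were 772 to 780 CPM in HOMO, 738 to 799 CPM in HET and 851 and 998 CPM in WT hearts. Of 12 tested, 1 was higher and 3 were lower in HOMO, and 0 were higher and 4 lower in HET against WT hearts, where 27.7% and 28.0% of all genes passed. H1f0, the linker histone of resting cells, had 148 ± 3.88 CPM in HOMO, 123 ± 4.23 CPM in HET and 111 ± 3.33 CPM in WT hearts (SD). Its log2 fold change was 0.41 ± 0.11 (adjusted p = 0.0169) in HOMO and 0.15 ± 0.11 (adjusted p = 0.324) in HET against WT hearts. H1fx, another linker histone, had 1.33 ± 0.13 CPM in HOMO, 1.0 ± 0.28 CPM in HET and 3.87 ± 1.35 CPM in WT hearts, and fell by 1.54 ± 0.40 (adjusted p = 0.0159) in HOMO and fell by 1.94 ± 0.41 (adjusted p = 0.00606) in HET hearts on the log2 scale. H2afj (-1.16 and -1.31) and H3f3b (-0.72 and -0.72), an H2A and an H3 replacement gene, were also lower, in HOMO and HET hearts. With 1 WT library left out, only log2 fold changes are given. Without WT 2 they were -1.83 in HOMO and -2.22 in HET hearts for H1fx. For H2afj they shrank to -0.435 and -0.585, and for H3f3b to -0.307 and -0.312. H1f0 in HOMO hearts stood at 0.475 without WT 2 and 0.383 without WT 1. Without WT 1, H1fx stood at -1.53 in HET and -1.13 in HOMO hearts. Genes of the list that pass were not counted in fits with 1 WT library.

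Most genes that make and load histones did not pass, as most of all genes tested did not. Of 18 genes for transcription and 3′ processing of histone messages, 3 were higher and 3 lower in HOMO, and 4 were higher and 3 lower in HET against WT hearts, beside 27.7% and 28.0% of all genes called in either direction. Casp8ap2, needed for cleavage of histone messages, had 23.2 ± 2.13 CPM in HOMO, 24.5 ± 1.68 CPM in HET and 11 ± 0.39 CPM in WT hearts (log2 fold change 1.08 and 1.16, adjusted p = 0.000927 and 0.000651). Without WT 2 its log2 fold change was 1.08 in HOMO and 1.15 in HET hearts. Of 18 histone chaperones and importers, 4 were higher and 1 lower in HOMO, and 3 were higher and 1 lower in HET against WT hearts. The shares of all genes called were again 27.7% and 28.0%. Asf1a, a chaperone of H3 and H4, had 25.4 ± 2.29 CPM in HOMO, 28.1 ± 2.54 CPM in HET and 13.6 ± 1.75 CPM in WT hearts (0.90 and 1.05, adjusted p = 0.00284 and 0.00130). Atrx, a chromatin remodeller, was higher by 0.62 and 0.65 (adjusted p = 0.00509 and 0.00403). Without WT 2 the log2 fold changes in HOMO and HET hearts were 0.808 and 0.954 for Asf1a, and 0.747 and 0.768 for Atrx. With 1 WT library left, genes of the processing and chaperone lists that pass were not counted there.

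Genes of DNA replication and mitosis mostly did not pass. Of 31 S phase genes, 2 were higher and 0 lower in each comparison with WT, where 27.7% (HOMO) and 28.0% (HET) of all genes passed. Ccne2, for cyclin E2, was higher in both (log2 fold change 1.32 and 1.30, adjusted p = 0.0355 and 0.0386), but not without WT 2 (adjusted p = 0.108 and 0.107) or without WT 1 (adjusted p = 0.0772 and 0.0829). Pola1, a subunit of DNA polymerase alpha, was higher in HOMO (1.04, adjusted p = 0.0224), and Pcna, the polymerase clamp, in HET hearts (0.59, adjusted p = 0.0389). With all libraries Pola1 missed the threshold in HET hearts (0.77, adjusted p = 0.0683). Its log2 fold change was 1.56 in HOMO and 1.29 in HET hearts without WT 2, and 0.68 and 0.41 without WT 1. Pcna fell to 0.38 in HET hearts without WT 2. Each of these fits holds 1 WT library, so genes of the list that pass were not counted there. Of 23 mitosis genes, none passed in edgeR's test in either comparison, beside 27.7% and 28.0% of all genes. Their sum was 191, 180 and 142 CPM in HOMO, 73.0, 203 and 166 CPM in HET, and 134 and 51.3 CPM in WT hearts, lowest in WT 2 and HET 1. Hearts are mixtures of cells, so fewer cells of a type and less RNA per cell cannot be told apart, and the part that cell makeup, RNA quality or WT 2 had in the histone values was not tested.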

How the data were processed

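Bulk RNA was sequenced from P40 mouse hearts (HOMO n = 3, HET n = 3, WT n = 2). The authors deposited raw counts per gene symbol. The submitters' processing notes name the mm10 build, HISAT2, featureCounts of Subread, Trimmomatic 0.36 and DESeq2; the annotation, strand setting and treatment of multi-mapping reads are not stated there. In R 4.3.3 with edgeR 4.0.16, filterByExpr kept 15075 of 24516 genes, TMM set the scale, and a single robust quasi-likelihood model took in all 8 libraries. Genotypes were compared by its two-sided F test, and an adjusted p (Benjamini-Hochberg, whole table) under 0.05 was called. The procedure was tested on simulated data, where only genes of at least 1 CPM were changed and no library stood apart. That test does not cover changes in members under 1 CPM or a library such as WT 2. SE comes from the fit. A group or library at 0 has a floor of 3 counts, which covers counting error only. The smallest library held 22230090 counts. Positions, transcripts and sequences come from GENCODE vM21 and RefSeq (GRCm38). Alternatives covered scaling, filters, tools (DESeq2 1.42.0, limma 3.58.1), samples, a replicate block, length and GC, and each library left out. Named were all linker genes, core genes that were called or averaged at least 1 CPM, and up to 4 genes per context list by smallest p. Members and lists were chosen with earlier results of these data known.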

Additional observations from a re-analysis of the deposited data

How the results depend on the processing

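Of 18 alternatives, those that moved the count of members past the threshold (3 in HOMO and 3 in HET against WT) by over 1.5 times were a fit of only the genotypes compared (0 in HOMO, 1 in HET), DESeq2 (5 in HET, with Hist1h4k and Hist1h2be higher and Hist1h4h lower besides Hist1h1e and Hist1h2al) and leaving out libraries, which gave 0 to 9 in HOMO and 1 to 8 in HET. The highest counts came without WT 1. HOMO against HET gave 0 members under every alternative. Hist1h1e and Hist1h2al kept their direction against WT in all 18. Hist1h1e lost its call in HOMO with only the genotypes compared or without HOMO 2 or HOMO 3 (highest adjusted p = 0.0686), and in HET with only the genotypes compared, the replicate block, or without HET 1, HET 2, HOMO 2 or HOMO 3 (highest adjusted p = 0.0872). Without WT 1 its fold change rests on a WT library at 0. Hist1h2al lost its call in HOMO with only the genotypes compared (-1.49), the correction for length and GC (-0.95), or without HOMO 1, HOMO 2 or WT 2. Hist2h2bb lost its call in HOMO under 5 of 8 other alternatives and 7 of 8 left-out libraries (adjusted p 0.0443 to 0.168), and in HET under 6 of 8 and 7 of 8. DESeq2 gave it no adjusted p. It did not pass the stricter filter. Hist1h1c passed with the correction for length and GC (0.99 in HOMO, adjusted p = 0.0308, and 0.92 in HET, adjusted p = 0.0420) and with the block. The difference of Hist1h1e between HOMO and HET, 0.19, spanned -0.004 (without HET 3, reversed) to 0.37 with libraries left out. The ratio of summed core levels spanned 0.816 to 1.08 in HOMO and 0.772 to 1.03 in HET over WT with libraries left out, and that of linker levels 1.24 to 2.17 and 1.17 to 2.05. The cause was not tested. With replicate number as a block, 3 members passed in HOMO (Hist1h1e, Hist1h1c, Hist1h2al), 2 in HET (Hist1h1c, Hist1h2al) and 0 between HOMO and HET. Of all 15075 genes, 3328 passed in HOMO, 3376 in HET and 0 between HOMO and HET with the block. Deviations from the genotype mean correlated at r = 0.177, 0.138 and -0.0228 between HET and HOMO samples sharing a number. For HET and HOMO samples with different numbers r lay between -0.225 and 0.135. So few pairs cannot decide whether the numbers pair samples. At these depths, members under 10 counts allow no statement on genotype. The values of the other gene lists without WT 1 or WT 2 and the H2A sum without Hist1h2al were added after the data were seen.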
